A study of Mus musculus with 16 samples.

Results

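Cytochrome P450 genes were taken from gene tables of kidney and liver RNA-seq libraries as all symbols made of Cyp, a family number and, where present, a subfamily letter and a member number. The pattern matched 94 symbols, 3 of which (Cyp4a29, Cyp2c66 and Cyp19a1) had 0 counts in all libraries. The remaining 91 genes, out of 24984 genes in the tables, form 38 subfamilies and are described here. Another 11 P450 symbols with a further letter, such as Cyp3a41a and Cyp4a12a, lie outside the pattern. The tissues came from aged female wild-type C57BL/6 mice, 24 months old per the labels; by the study's methods this was the age at injection, and the organs were collected some months later. The shFos mice had been injected with an adeno-associated virus of serotype AAV8 encoding a hairpin RNA that targets Fos, and the NT mice with the same virus encoding a non-targeting hairpin. Both groups therefore carried the virus, and no uninjected mice were among the 16 libraries, 4 for each tissue and treatment. The hairpin was delivered into the blood, so the labels do not say which cells took it up. Replicates are numbered in the labels but not tied to named mice, so p-values measure the spread between these libraries.

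P450 enzymes are heme proteins that insert an oxygen atom into their substrates, and most of them sit in the endoplasmic reticulum, where P450 oxidoreductase hands them electrons. A smaller group works in mitochondria with ferredoxin as the electron donor. Families 1 to 3 mostly oxidize drugs, pollutants and steroids in the liver. Family 4 hydroxylates the ends of fatty acids and of arachidonic acid, and its products in the kidney act on blood vessels and salt transport, while the Cyp2j enzymes turn arachidonic acid into epoxides. Other members make or break down 1 kind of molecule each, such as bile acids, vitamin D, retinoic acid, sterols or steroid hormones. By these roles the 91 genes comprised 56 drug and xenobiotic genes, 16 fatty acid hydroxylases, 6 genes of bile acid synthesis and cholesterol breakdown, 5 of steroid hormones, 3 of vitamin D, 3 of retinoic acid, 1 of sterol synthesis (Cyp51) and 1 without a settled role (Cyp20a1).

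Counted reads ranged from 14194543 to 15534665 per kidney library and from 16652150 to 18300277 per liver library, and a count of 0 allows up to 3 reads, which is 0.156 to 0.230 CPM (reads per standard library size, after TMM scaling). After the filter on low counts, 45 P450 genes were tested in both tissues, 6 in kidney alone, 24 in liver alone and 16 nowhere. Fos itself was 6.71, 5.26, 4.23 and 5.29 CPM in the NT kidneys and 2.57, 4.12, 3.93 and 2.30 CPM in the shFos kidneys. These groups did not overlap (exact permutation test, p = 0.0286, the smallest that 4 against 4 can give), although the adjusted p of edgeR's quasi-likelihood test was 0.0955. In the liver Fos was 1.12, 2.37, 3.70 and 2.86 CPM against 1.63, 1.5, 2.76 and 1.38 CPM, and the groups overlapped (exact permutation test, p = 0.343). Several libraries stood apart. Kidney NT replicate 4 held the highest or lowest NT value for 43 of the 51 P450 genes tested there (84.3%, against 75.1% of all genes). Kidney shFos replicate 1 lay inside the range of the NT kidneys for 34 of the 51 (66.7%, against 62.5% of all genes) and the other shFos kidneys for 21 to 26 of the 51. Liver NT replicate 4 held an extreme NT value for 82.6% of the 69 P450 genes tested in the liver (66.1% of all genes), and liver shFos replicate 3 an extreme shFos value for 79.7% (57.1% of all genes).

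P450 transcripts took a larger share of the liver than of the kidney. All members together made up 2.40 ± 0.555% (SD, n = 4) of counted reads in NT livers and 0.661 ± 0.246% (SD, n = 4) in NT kidneys. In the liver the Cyp2c subfamily was the most abundant by reads, with 0.614 ± 0.139% (SD, n = 4), ahead of Cyp2a with 0.486 ± 0.239%, Cyp2e with 0.299 ± 0.066%, Cyp3a with 0.281 ± 0.0353% and Cyp2d with 0.227 ± 0.0168%. The Cyp2c and Cyp2a shares differ by less than the SD of Cyp2a, so their order does not exceed the spread. In the kidney the Cyp4a fatty acid hydroxylases led with 0.249 ± 0.197% (SD, n = 4), followed by Cyp2j with 0.0918 ± 0.0292%, Cyp2a with 0.0819 ± 0.0466% and Cyp2d with 0.0813 ± 0.015%. The kidney order is no firmer, because the Cyp4a share ran from 0.128% to 0.542% over the NT kidneys and the next 3 shares differ by less than their SDs. In bulk tissue, fewer cells of a type and less RNA per cell cannot be told apart.

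**Figure D1:**
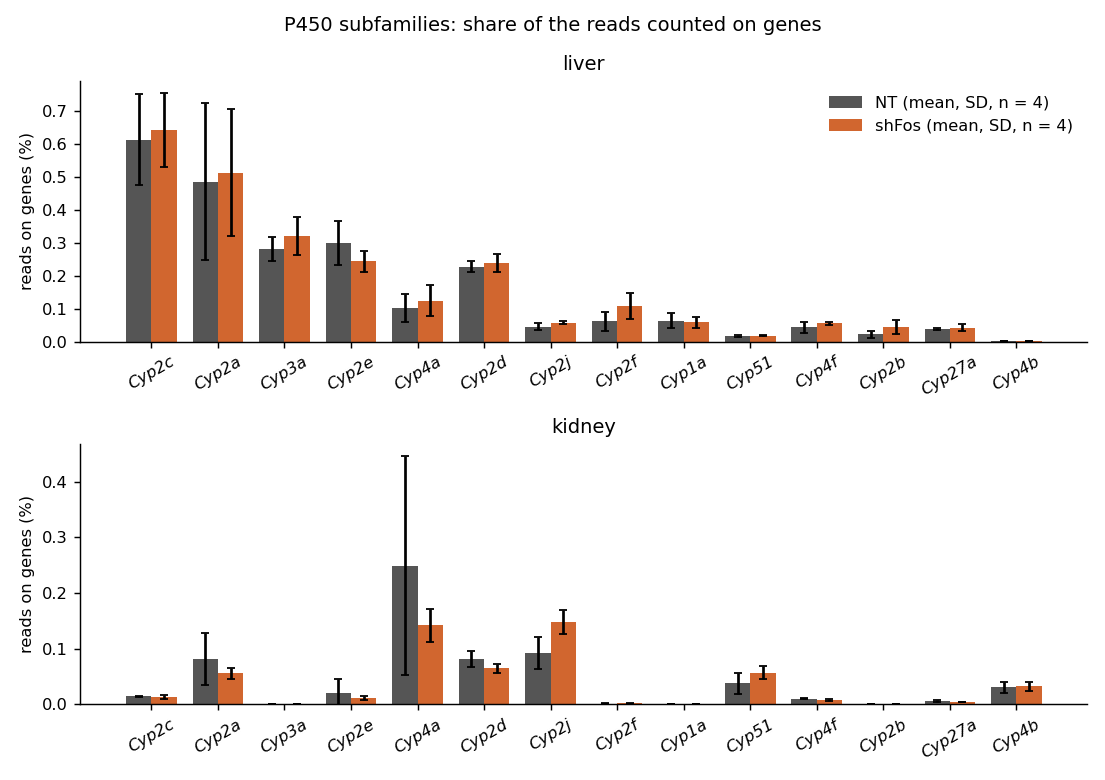
Share of counted reads (percent) taken by the P450 subfamilies with the largest shares, in liver (upper panel) and kidney (lower panel), with NT and shFos groups side by side. Bars are means and error bars are SD over 4 libraries. Cyp2c, Cyp2a, Cyp2e, Cyp3a and Cyp2d fill most of the liver share, while Cyp4a leads in the kidney with a wide spread in the NT group.

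Per length of transcript, the levels of single genes followed another order. Values here are CPM per kb of exon, which allows genes of different length to be compared. In NT livers Cyp2a4, a steroid 15α-hydroxylase, stood at 1606 ± 1078 (SD, n = 4) and Cyp2e1, which oxidizes ethanol and acetone, at 1412 ± 392. The next were Cyp2d26 at 720 ± 108, Cyp2c70, which makes muricholic acid in mice, at 663 ± 148, Cyp2c29 at 533 ± 153, Cyp2a5, the coumarin hydroxylase, at 524 ± 311, Cyp3a44 at 481 ± 278, Cyp2c37 at 477 ± 155, Cyp2c69 at 435 ± 288 and Cyp2d10 at 338 ± 18.7. Neighbours in this order differed by less than the larger of their SDs, except Cyp2e1 and Cyp2d26. In NT kidneys Cyp4a14 (412 ± 450 CPM per kb) and Cyp4a10 (406 ± 292), hydroxylases induced through PPARα, came first, followed by Cyp2j5 (279 ± 102), an arachidonic acid epoxygenase, Cyp2a4 (253 ± 32.9), Cyp4a31 (191 ± 51.3), Cyp2a5 (170 ± 238), Cyp2d26 (161 ± 35.1), Cyp4b1 (131 ± 42.3), Cyp2e1 (92.4 ± 107) and Cyp2d12 (83.1 ± 22). Of these kidney neighbours, only Cyp2a4 and Cyp4a31 differed by more than both SDs. Reads of near-identical neighbours, such as Cyp2a4 and Cyp2a5, the Cyp2c, Cyp2d and Cyp3a genes and Cyp4a10, Cyp4a31 and Cyp4a32, can be split or dropped by the counting, so their single levels are uncertain.

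The liver and kidney of NT mice were compared in a fit of all 16 libraries. Of 75 P450 genes tested, 52 were higher in the liver (69.3%, against 30.2% of all 15421 genes) and 11 were higher in the kidney (14.7%, against 34.4% of all genes), at an adjusted p under 0.05 in edgeR's quasi-likelihood test. The median log2 difference of liver minus kidney was 4.54 over the P450 genes and -0.05 over all genes. Of the 75, 24 passed the filter on low counts only in the liver and 6 only in the kidney, so their direction was set by the tissue that admitted them. Of the 45 that passed in both tissues, 28 were higher in the liver (62.2%, against 33.4% of the 12727 genes that passed in both) and 5 were higher in the kidney (11.1%, against 27.6%). The median over these 45 was 2.58, against 0.07 over the genes that passed in both. Among them, all 5 Cyp2c genes, both Cyp2a genes, both Cyp3a genes and the 1 Cyp2b gene were higher in the liver, and the other tested genes of these subfamilies had passed through the liver alone. Cyp7a1 and Cyp1a2 were likewise tested through the liver alone. Cyp7a1, which starts bile acid synthesis from cholesterol, had 3 reads over the NT kidneys against 8153 over the NT livers, a ratio of 2260.0 per counted read (exact 95% interval 773 to 10961, counting error only). Cyp1a2, which metabolizes caffeine, was higher in the liver by 11.90 on the log2 scale (SE 0.73), Cyp2c70 by 11.41 (SE 0.89) and Cyp2c29 by 11.24 (SE 0.81). Scaling by library size alone lowered the liver minus kidney differences of the 75 P450 genes by a median of 1.04 on the log2 scale (range 0.50 to 1.12), and 48 of them were then higher in the liver and 17 in the kidney. Of the 52 liver-high genes, Cyp2j6 and Cyp4f17 then changed sign, to -0.10 and -0.44. The Cyp4f17 call also ended without liver NT replicate 2 or 4 or kidney NT replicate 2 or 3 (adjusted p from 0.0709 to 0.0864).

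The 11 genes higher in the kidney were 7 drug and xenobiotic genes, 2 fatty acid hydroxylases and 2 vitamin D genes. The first 2 of these roles also hold most of the 91 members (56 and 16). Of the 11, 6 (Cyp2j11, Cyp2j13, Cyp2j8, Cyp24a1, Cyp27b1 and Cyp2d12) had passed the filter in the kidney alone. Cyp2j11 had 9142 reads over the NT kidneys and 0 over the NT livers, at least 3664-fold higher per counted read with a floor of 3 reads over the group. Cyp2j13, in the same gene cluster, had 133 reads against 0, at least 53.3-fold higher. Cyp24a1, the mitochondrial enzyme that inactivates vitamin D, had 7264 reads in the NT kidneys and 2 in the NT livers, a ratio of 4368 (exact 95% interval 1209 to 36071). Cyp27b1, which makes the active hormone calcitriol, had 1155 reads in the NT kidneys, 871 of them in replicate 4, and 4 in the NT livers. Its log2 difference of -7.28 (SE 1.27) thus rests on liver counts near the floor. Cyp2r1, which carries out the preceding 25-hydroxylation of vitamin D, was tested in both tissues and was higher in the liver by 3.93 (SE 0.23). The direction of Cyp24a1 and Cyp27b1 was set by the filter, so no division of the vitamin D genes between the organs is read from them. The other kidney-high genes were Cyp2d12 (-8.33, SE 0.37), Cyp4b1 (-3.96, SE 0.23), Cyp4a31 (-3.91, SE 0.30), Cyp1b1 (-3.49, SE 0.33), Cyp2s1 (-3.43, SE 0.27), Cyp2j8 (-1.60, SE 0.59) and Cyp1a1 (-0.84, SE 0.35), all as log2 differences of liver minus kidney. The Cyp1a1 call, at an adjusted p of 0.0472, ended when any of 11 of the 16 libraries was left out in turn (adjusted p from 0.0501 to 0.104), which were the 4 NT kidneys, shFos kidneys 1 and 4, NT livers 1, 2 and 4 and shFos livers 1 and 4. The Cyp2j8 call ended without kidney NT replicate 4 (adjusted p = 0.0687) or liver NT replicate 2 (0.0793). The Cyp4a genes, all tested in both tissues, divided between the organs. Cyp4a31 was kidney-high and Cyp4a32 liver-high (4.47, SE 0.46), whereas Cyp4a10 (-0.14, SE 0.42) and Cyp4a14 (0.04, SE 0.65) did not differ beyond their error. Cyp51, the lanosterol demethylase of cholesterol synthesis that nearly all cells use, was at -0.05 (SE 0.33), and Cyp2j5 was at 0.24 (SE 0.29). That Cyp4a10, Cyp4a14, Cyp51 and Cyp2j5 were near level holds under TMM scaling. Library size alone lowered the differences of the 75 P450 genes by a median of 1.04.

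**Figure D2:**
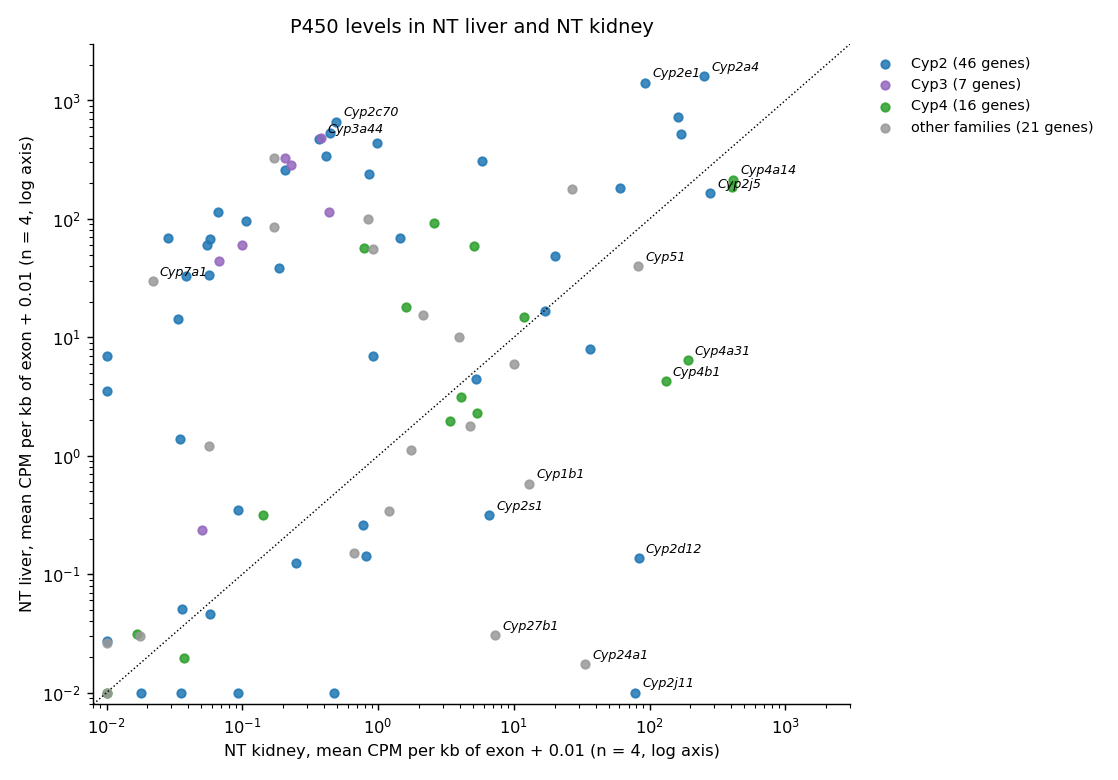
Mean CPM per kb of exon in NT kidney (horizontal, log axis) and NT liver (vertical, log axis) for 90 P450 genes with a known exon length; 0.01 was added to both, each point is a gene (n = 4 libraries per mean) and the dotted line marks equal levels. Most Cyp2 and all Cyp3 genes lie above the line, while Cyp2j11, Cyp24a1, Cyp27b1, Cyp2d12, Cyp4b1 and Cyp4a31 lie below it.

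Between shFos and NT kidneys, edgeR called no P450 gene at an adjusted p under 0.05 with all libraries, whereas DESeq2 called 6. The Cyp2j and Cyp4f subfamilies are described in most detail, a choice made after their values were seen: in each, 4 of 6 tested genes had an unadjusted p under 0.05, with 2 higher and 2 lower in Cyp2j and 4 lower in Cyp4f. With all 8 kidney libraries, edgeR called 0 of the 51 P450 genes at an adjusted p under 0.05, as it called 0 of 14892 genes (0%), and the lowest adjusted p of a P450 gene was 0.0703. At an unadjusted p under 0.05 there were 3 higher in the shFos group (5.88%, against 17.1% of all genes) and 12 lower (23.5%, against 14.8% of all genes). Over all 51 genes the median log2 fold change of shFos over NT was -0.21, against 0.00 over all genes. That median was -0.03 when NT replicate 4 was left out and -0.39 when shFos replicate 1 was. The groups did not overlap for 1 higher gene (1.96%, against 9.16% of all genes) and 2 lower ones (3.92%, against 8.04% of all genes). DESeq2 called 2 P450 genes higher (2.30%, against 7.5% of all genes) and 4 lower (4.60%, against 5.52%). Without shFos replicate 1, edgeR called 2 higher (3.92%, against 12.5%) and 8 lower (15.7%, against 15%). Without both that library and NT replicate 4, a setting chosen after the data were seen, it called 4 higher (8.51%, against 16.4%) and 11 lower (23.4%, against 18.5%). In the last 3 of these settings, where genes were called, the share of P450 genes called higher was below that of all genes, and the share called lower was on either side of it.

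**Figure D3:**
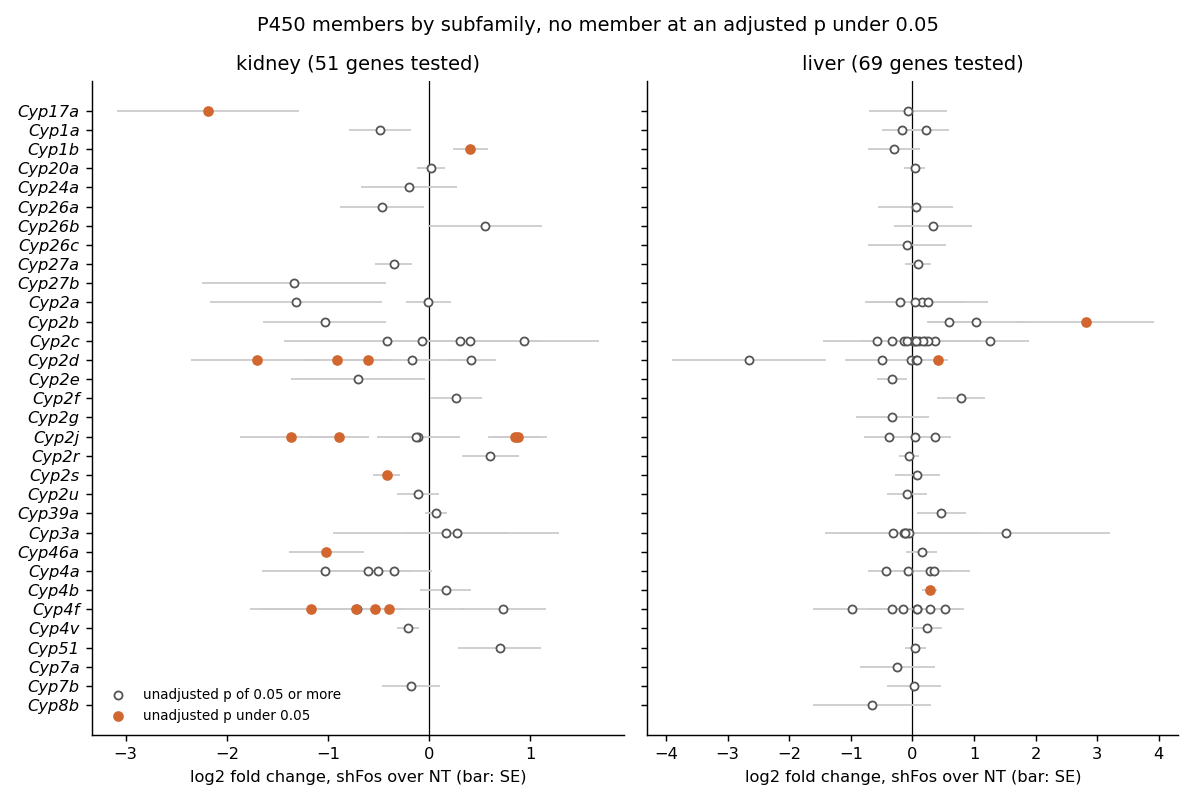
Log2 fold change of shFos over NT for P450 genes in both organs, by edgeR, with 1 point per gene on the row of its subfamily, error bars of 1 SE and filled points for an unadjusted p under 0.05. The kidney panel holds 15 filled points and the liver panel 3, and no gene passed the adjusted threshold in either tissue.

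The 4 P450 promoters below are shown because these genes were among those with the smallest p in the kidney, 3 of them members of the Cyp2j cluster that differed in direction, and the fourth the one of them with a match to the AP-1 motif, the site of the dimers that the Fos protein joins. They are RefSeq sequences on GRCm38.p6, 5′ to 3′ on the gene's strand, up to 250 bases before the start, and bases that the GENCODE annotation places inside a transcript were left out. The regions are chr4:96348681-96348930 (- strand) for Cyp2j11, chr4:96664155-96664369 (- strand) for Cyp2j5, chr4:96591579-96591735 (- strand) for Cyp2j9 and chr17:32536307-32536556 (+ strand) for Cyp4f16. Capitals mark the match to the AP-1 motif TGANTCA on either strand, and a sequence with no capitals holds no match.
Cyp2j11: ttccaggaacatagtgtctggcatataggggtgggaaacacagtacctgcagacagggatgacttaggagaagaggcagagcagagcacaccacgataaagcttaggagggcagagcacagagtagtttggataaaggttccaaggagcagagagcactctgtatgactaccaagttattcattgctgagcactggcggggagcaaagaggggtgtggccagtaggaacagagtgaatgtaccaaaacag
Cyp2j5: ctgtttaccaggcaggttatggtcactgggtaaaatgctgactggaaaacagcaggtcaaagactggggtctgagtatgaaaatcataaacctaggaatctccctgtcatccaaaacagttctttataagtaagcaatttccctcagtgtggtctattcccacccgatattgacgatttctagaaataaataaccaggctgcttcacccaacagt
Cyp2j9: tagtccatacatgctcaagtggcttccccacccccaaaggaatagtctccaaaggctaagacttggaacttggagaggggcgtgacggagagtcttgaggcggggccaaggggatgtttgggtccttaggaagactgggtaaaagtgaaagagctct
Cyp4f16: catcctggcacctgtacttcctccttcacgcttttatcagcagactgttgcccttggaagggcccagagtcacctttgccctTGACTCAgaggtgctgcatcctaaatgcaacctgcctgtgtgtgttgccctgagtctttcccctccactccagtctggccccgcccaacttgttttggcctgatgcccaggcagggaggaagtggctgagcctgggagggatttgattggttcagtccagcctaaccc

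The AP-1 match in the Cyp4f16 promoter began 168 bases before the start. Within 250 bases before the start, TGANTCA occurred in 6.75% of 32851 mouse promoters and in 4 of the 70 P450 genes with an entry (Cyp3a13, Cyp4b1, Cyp4f16 and Cyp4f37). Here and below, shares of all are per promoter and P450 counts are per gene (70 genes with 78 promoters), so they are not directly comparable. The D-box TTATGTAA, bound by Dbp, Tef and Nfil3, occurred in 0.819% of all promoters and in 0 of the 70, and the E-box CACGTG, bound by the clock factors, in 6.02% of all and in 2 of the 70 (Cyp2j6 and Cyp4v3). These matches describe letters in a window and were not tested for binding.

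The Cyp2j genes lie in 1 cluster on chromosome 4 of mm10, from 96027534 to 96664154, and code for epoxygenases of arachidonic acid. Cyp2j11 (ENSMUSG00000066097.6, 96294508 to 96348662) was 176, 148, 190.4 and 86.8 CPM in the NT kidneys and 197, 289.8, 299 and 296 CPM in the shFos kidneys. Every shFos kidney was above every NT kidney, with shFos replicate 1 the lowest of its group and NT replicate 4 the lowest of all. The log2 fold change was 0.85 (SE 0.24, adjusted p = 0.0703), the smallest p of any P450 gene in the kidney, and DESeq2 gave an adjusted p of 0.00908. Over the alternatives its adjusted p ranged from 0.00107 to 0.193, with the lowest value without NT replicate 4 and shFos replicate 1. Cyp2j5 (ENSMUSG00000052520.7, 96628773 to 96664154) was 796, 635, 864 and 325 CPM in NT and 851, 1201, 1375 and 1379.7 CPM in shFos kidneys. Its groups overlapped only through shFos replicate 1, which was below NT replicate 3, and the log2 fold change was 0.87 (SE 0.29, adjusted p = 0.0878 in edgeR and 0.02 in DESeq2).

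Between Cyp2j11 and Cyp2j5 in the cluster, Cyp2j9 (ENSMUSG00000015224.10, 96568429 to 96591578) was 14.1, 14, 14.5 and 27.3 CPM in NT kidneys and 13.9, 6.25, 9.08 and 8.45 CPM in shFos kidneys. The groups did not overlap, but shFos replicate 1 was just below the lowest NT kidney and NT replicate 4 was far above the others, and the log2 fold change was -0.89 (SE 0.30, adjusted p = 0.0878 in edgeR and 0.033 in DESeq2). It was -0.59 without NT replicate 4. Cyp2j8, at 0.986, 1.21, 0.912 and 1.74 CPM in NT and 0.964, 0.200, 0.215 and 0.461 CPM in shFos kidneys, rested on at most 27 reads per library, with a log2 fold change of -1.37. The groups overlapped through shFos replicate 1 alone, and the value was -2.09 without it. Cyp2j6 lies between Cyp2j8 and Cyp2j9 and was nearly level, at 56.1 to 67.2 CPM in NT and 53.1 to 60.5 CPM in shFos kidneys. Its log2 fold change was -0.13, and that of Cyp2j13, at the other end of the cluster, was -0.11 and changed sign with single libraries left out. As a subfamily Cyp2j made up 0.0918 ± 0.0292% (SD, n = 4) of reads in NT and 0.148 ± 0.0214% in shFos kidneys. Kidney markers, mostly of the tubule, and markers of vessels differed between the same libraries. The 8 kidney markers examined were tubule genes and Nphs1, a gene of podocytes. They summed to 11093 to 14637 CPM in NT and 15269.8 to 17480.1 CPM in shFos kidneys without overlap. At an unadjusted p under 0.05, 3 of the 8 were higher (37.5%, against 17.1% of all genes) and 1 was lower (12.5%, against 14.8%). The 4 endothelial markers examined summed to 176 to 243 CPM and 273 to 322 CPM, also without overlap, with 3 of the 4 higher (75%, against 17.1%). The part of these cell types in the P450 values was not tested.

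Cyp4f genes hydroxylate leukotrienes and long fatty acids, and all but Cyp4f18 lie on chromosome 17. Cyp4f13 (ENSMUSG00000024055.15, 32924688 to 32947402) was 48.6, 56.5, 48.8 and 57.3 CPM in NT kidneys and 49.3, 32.8, 26.7 and 36.3 CPM in shFos kidneys. The groups overlapped because shFos replicate 1 was at the NT level, while the other 3 shFos kidneys were below all NT kidneys. The log2 fold change was -0.54 (SE 0.17, adjusted p = 0.0801 in edgeR and 0.0372 in DESeq2). Cyp4f17 was 13.2, 9.70, 10.6 and 18.8 CPM in NT and 10.7, 6.52, 7.87 and 6.53 CPM in shFos kidneys, with a log2 fold change of -0.72 (adjusted p = 0.0932 in edgeR and 0.0477 in DESeq2). Cyp4f16 was 15.6, 18.0, 17.7 and 13.9 CPM against 14.5, 11.8, 11.9 and 11.2 CPM, a log2 fold change of -0.40 (adjusted p = 0.0847). For both genes, again, shFos replicate 1 alone lay inside the NT range. Cyp4f18, which oxidizes leukotriene B4 in leukocytes, was 2.96, 7.28, 12.2 and 2.51 CPM in NT and 1.99 to 3.43 CPM in shFos kidneys, a log2 fold change of -1.17 that was -0.61 without NT replicate 3. The 5 T and B cell markers examined, other genes of leukocytes, summed to 4.64 to 126 CPM in NT kidneys, highest in replicate 3, and to 10.6 to 21.7 CPM in shFos kidneys. All 5 were lower in shFos kidneys by fold change (median log2 fold change -1.20), with 1 at an unadjusted p under 0.05 (20%, against 14.8% of all genes). Of the 4 macrophage markers tested in the kidney, 2 were higher and 2 lower by fold change (median log2 fold change 0.03). At that threshold 0 of them were higher (against 17.1% of all genes) and 0 lower (against 14.8%). The part of either cell type in the Cyp4f18 values was not tested. Cyp4f14 had a positive log2 fold change of 0.73 that did not pass the unadjusted threshold, and one of its NT kidneys, replicate 4, stood at 2.13 CPM, far below the others. Its value was 0.44 without that library. The subfamily thus held both signs.

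Among the other drug-metabolizing genes of the kidney, Cyp2d22 was 51.9, 58.0, 56.2 and 146 CPM in NT and 49.9, 34.7, 46.7 and 34.4 CPM in shFos kidneys. The groups did not overlap, but the log2 fold change of -0.91 (adjusted p = 0.107) was -0.42 without NT replicate 4. Cyp2s1 was 32.5, 34.0, 27.0 and 36.7 CPM in NT and 29.8, 21.9, 24.0 and 21.5 CPM in shFos kidneys (log2 fold change -0.42, adjusted p = 0.0811). Its groups overlapped through shFos replicate 1. Cyp2d12, the kidney-high Cyp2d gene, was 324, 368, 395 and 202 CPM against 259, 199.7, 136 and 251 CPM, with NT replicate 4 at the level of the shFos kidneys. Cyp1b1, which hydroxylates oestrogens and pollutants, was 67.5, 90.4, 86.9 and 57.1 CPM in NT and 78.9, 97.0, 122 and 103 CPM in shFos kidneys (log2 fold change 0.41), with overlapping groups. Cyp46a1, the cholesterol 24-hydroxylase known from neurons, was 5.46, 6.47, 4.82 and 6.25 CPM in NT and 5.53, 2.13, 1.86 and 1.77 CPM in shFos kidneys. It had an adjusted p of 0.104 with all libraries and of 0.00199 without shFos replicate 1, which sat inside the NT range. Cyp2b9 was low, with shFos replicate 1 the highest of all 8 kidneys and the other shFos kidneys below all NT kidneys, at 2.30, 2.70, 3.32 and 2.45 CPM in NT and 3.47, 0.466, 0.787 and 0.461 CPM in shFos kidneys.

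**Figure D4:**
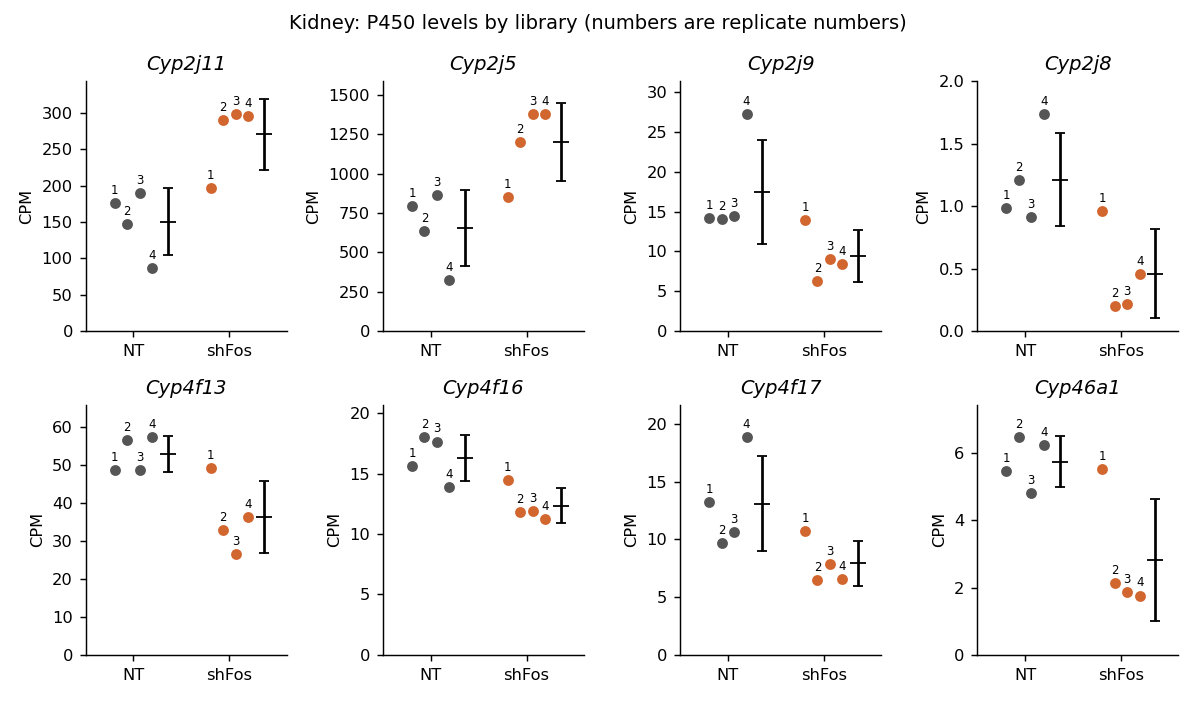
CPM of 8 P450 genes in each of the 8 kidney libraries, with NT and shFos groups side by side and points labelled by replicate number. Each panel has its own linear axis, and the black marks are the mean and SD of each group (n = 4). In several panels shFos replicate 1 lies with the NT kidneys, and NT replicate 4 lies apart from the other NT kidneys.

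Of the 10 most abundant kidney P450 genes, Cyp4a14, Cyp4a10, Cyp2a5 and Cyp2e1 were far higher in NT replicate 4 than in the other kidneys. Cyp4a14 was 446, 611, 409 and 2821 CPM in NT and 418, 447, 812 and 420.0 CPM in shFos kidneys. Its log2 fold change of -1.03 became 0.10 without NT replicate 4. Cyp4a10 was 576, 607, 469 and 1775 CPM against 481, 473, 792 and 513 CPM, Cyp2a5 was 99.0, 98.9, 117 and 1093 CPM against 124, 69.7, 265 and 105 CPM, and Cyp2e1 was 91.2, 52.2, 109 and 545 CPM against 91.8, 131, 171 and 94.6 CPM. In these genes NT replicate 4 was the highest of the 8 kidneys, and the remaining libraries of both groups overlapped. Cyp4a31 was also highest in NT replicate 4, at 646 CPM against 352 to 507 CPM in the other NT kidneys. It was 337 to 426 CPM in shFos kidneys, and its log2 fold change of -0.34 was -0.16 without NT replicate 4. For Cyp2d26, Cyp4b1 and Cyp2a4 an shFos kidney was the highest. Cyp2d26 was 244 to 381 CPM in NT and 270.5 to 582 CPM in shFos kidneys with shFos replicate 3 the highest. Cyp4b1 was 220.2 to 432 CPM and 232 to 435 CPM, and Cyp2a4 was 373 to 509 CPM and 265 to 580.0 CPM. Cyp2d9, outside the 10, was likewise highest in NT replicate 4, at 30.6, 39.0, 57.1 and 261 CPM in NT and 24.0 to 40.1 CPM in shFos kidneys, with a log2 fold change of -1.70 that was -0.50 without NT replicate 4. Other kidney genes set NT replicate 4 and shFos replicate 3 apart together. Kap, an androgen-regulated tubule gene, was 1557 and 1454 CPM in these libraries against 7014 to 26157 CPM in the other kidneys, and Cyp4a12a, a P450 gene outside the pattern, was 11.7 and 14.3 CPM against 0.912 to 5.12 CPM. Their part in the values of the 2 libraries was not tested.

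With all libraries, neither edgeR nor DESeq2 called genes that handle vitamin D, retinoic acid, sterols, bile acids or steroid hormones in the kidney. Cyp27b1 was 3.29, 10.1, 5.47 and 56.1 CPM in NT and 4.18, 2.79, 16.7 and 6.14 CPM in shFos kidneys, and its log2 fold change of -1.33 turned to 0.25 without NT replicate 4. Cyp24a1 was 154, 99.9, 169.7 and 53.7 CPM against 55.1, 211, 71.5 and 78.1 CPM, and Cyp2r1 was 1.55 to 2.37 CPM against 2.06 to 3.69 CPM (log2 fold change 0.60). Both overlapped between groups. Cyp26b1, which degrades retinoic acid, was 6.38, 15.0, 32.7 and 47.8 CPM in NT and 29.8, 32.9, 64.9 and 21.4 CPM in shFos kidneys, and the groups overlapped. Cyp51 was 467, 389, 491 and 105 CPM in NT and 565, 586, 442 and 757 CPM in shFos kidneys, with NT replicate 4 the lowest and a log2 fold change of 0.69 that was 0.39 without that library. Cyp27a1, the mitochondrial sterol 27-hydroxylase, was 48.9 to 84.9 CPM in NT and 41.2 to 51.5 CPM in shFos kidneys. Cyp26a1 was 0.838 to 2.48 CPM and 0.768 to 1.93 CPM. Cyp17a1 was 0.920, 0.809, 0.586 and 6.96 CPM in NT and 0.835, 0.266, 0.215 and 0.691 CPM in shFos kidneys, near the counting floor in all but NT replicate 4.

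Some P450 genes appeared in single kidneys, in part beside markers of another tissue. Cyp11b1 and Cyp21a1, enzymes of adrenal steroid synthesis, were 7.38 and 11.7 CPM in shFos replicate 2, where the adrenal markers Star, Hsd3b1 and Nr5a1 were 16.8, 7.18 and 0.665 CPM. Cyp11a1, which starts steroid synthesis, was 4.86 CPM there and 11.6 CPM in NT replicate 3, where Cyp11b1 and Cyp21a1 were both 0 CPM. The 6 adrenal markers examined summed to 12.1 to 19.2 CPM in NT and 9.75 to 43.9 CPM in shFos kidneys, and tissue carried over from the adrenal gland was not tested. The 24 P450 genes that passed the filter only in the liver summed to 9.66, 2.83, 4.30 and 4.64 CPM in the NT kidneys and 12.8, 2.93, 4.29 and 6.07 CPM in the shFos kidneys. Albumin, a hepatocyte marker, was 206, 31.8, 76.1 and 40.5 CPM and 193, 35.5, 51.9 and 85.2 CPM in the same libraries. The 8 hepatocyte markers examined summed to 367 to 827 CPM in NT and 667 to 1371 CPM in shFos kidneys. By fold change 4 were higher and 4 lower in shFos kidneys (median log2 fold change -0.17). At an unadjusted p under 0.05, 1 was higher (12.5%, against 17.1% of all genes) and 2 were lower (25%, against 14.8%). Replicate 1 was the highest of its group for albumin and for the P450 sum, and the part of liver RNA in these sums was not tested.

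In the liver, the shFos and NT groups overlapped for all but 1 of the P450 genes tested. edgeR called 0 of the 69 P450 genes tested and 0 of 13144 genes in all (0%), with 0.724 the lowest adjusted p of a P450 gene. At an unadjusted p under 0.05 there were 3 higher in the shFos group (4.35%, against 3.58% of all genes) and 0 lower (against 3.16% of all genes). DESeq2 called 0 P450 genes, against 0.151% of all genes. The groups did not overlap for 1 higher P450 gene (1.45%, against 2.79% of all genes) and for 0 lower ones (against 1.52%). The median log2 fold change of shFos over NT was 0.04 over the 69 genes and -0.01 over all genes.

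The non-overlapping gene was Cyp2d13, at 136, 155, 135 and 92.0 CPM in NT livers and 169.9, 169.7, 164 and 187 CPM in shFos livers. All shFos livers were above all NT livers, with a log2 fold change of 0.41 (SE 0.16, adjusted p = 0.724), which was 0.27 without NT replicate 4. Cyp2b13, a female-biased Cyp2b gene, was 7.06, 7.56, 9.84 and 1.91 CPM in NT and 14.6, 14.3, 153 and 2.93 CPM in shFos livers. The groups overlapped, and the log2 fold change of 2.81 (SE 1.11, adjusted p = 0.731) was 0.68 without shFos replicate 3. Cyp4b1, at 8.85 to 10.7 CPM in NT and 10.6 to 13.4 CPM in shFos livers, had a log2 fold change of 0.28. Cyp4f15 was 135, 176, 133 and 76.1 CPM against 189, 159.6, 230.2 and 173 CPM, a log2 fold change of 0.53 that did not pass the unadjusted threshold. Of the genes next in order, Cyp2c55, Cyp2b10 and Cyp2j5 had log2 fold changes of 1.26, 0.60 and 0.37, and Cyp4f18, Cyp4a32, Cyp2c39, Cyp2j9, Cyp4f39 and Cyp2d40 had values from -0.97 to -0.33, none of which passed that threshold.

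P450 genes spread widely over the 8 livers and over the 8 kidneys. The ratio of the highest to the lowest liver, with 0.5 CPM added to each value, had a median of 2.81 over the 69 genes and of 1.70 over all genes, and it was above 2 for 47 of the 69 (68.1%, against 33.4% of all genes). In the kidney the median was 2.96 over the 51 genes and 1.68 over all genes, and 40 of the 51 were above 2 (78.4%, against 32.9%). Cyp3a11, a main drug-metabolizing enzyme of mouse liver, was 12.0, 17.8, 113 and 1078 CPM in NT and 213, 82.7, 3153 and 35.0 CPM in shFos livers, a 252-fold range by the same measure. NT replicate 4 and shFos replicate 3 were the highest of their groups, and the log2 fold change of 1.51 was -1.47 without shFos replicate 3. Cyp3a44, which is expressed in female liver, ran the other way, at 1328, 1137, 1175 and 133 CPM in NT and 1132, 979.8, 8.57 and 1518 CPM in shFos livers. Cyp3a16 was 747, 599, 597 and 26.3 CPM against 389, 527, 9.80 and 659.8 CPM, with the same pair of livers lowest. Cyp2d10 was the steadiest, at 523 to 597 CPM in NT and 519 to 608 CPM in shFos livers.

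The same 2 livers were low for many P450 genes known to be higher in female mouse liver, 2 of which (Cyp3a16 and Cyp3a44) are given above. Of 9 such genes (Cyp2b9, Cyp2b13, Cyp2a4, Cyp3a16, Cyp3a44, Cyp2c39, Cyp2c40, Cyp2c69 and Cyp17a1), NT replicate 4 had the lowest NT value in 7 and shFos replicate 3 the lowest shFos value in 7. Over all 69 P450 genes tested in the liver, NT replicate 4 was the lowest NT liver for 40 and shFos replicate 3 the lowest shFos liver for 37. Over all 13144 genes tested, these libraries were the lowest of their groups for 4194 and 3691. Cyp2a4 was 4364, 3752, 2929 and 123 CPM in NT and 3077, 3443, 1185 and 3769 CPM in shFos livers. Cyp2c69 was 797, 1100.0, 1044 and 30.8 CPM against 1117, 994, 186 and 781 CPM, and Cyp2c40 was 262, 318, 193 and 12.2 CPM against 267, 319, 154 and 273 CPM. The exceptions in shFos replicate 3 were Cyp2b9 and Cyp2b13, which were the highest of their group there. Cyp2d9, known as higher in males, was 1.72, 2.42, 2.34 and 78.8 CPM in NT and 2.63 to 4.70 CPM in shFos livers, so that NT replicate 4 alone stood out, whereas Cyp7b1, also known as higher in males, was lowest in NT replicate 4 at 9.69 CPM, against 31.6 to 52.6 CPM in the other NT livers. All 16 libraries had 0 counts on 4 genes of the Y chromosome, and Xist was 432 to 780.3 CPM. Acute-phase genes (Saa1, Saa2, Saa3, Hp, Orm1 and Lcn2) summed to 3610 to 54338 CPM in the NT livers, highest in replicate 4, and to 3717 to 6121 CPM in the shFos livers, and their part in the P450 values was not tested. Albumin, and A1bg and Mup3, which were examined beside the sex-biased genes, were also low in NT replicate 4. Albumin was 27345 CPM there against 104128 to 170014 CPM in the other NT livers, A1bg was 4.66 CPM against 5033 to 5909 CPM, and Mup3 was 4.71 CPM against 563 to 951 CPM. In shFos replicate 3, A1bg was 1366 CPM against 4601 to 7300 CPM in the other shFos livers. Mup3 was 523 CPM there against 882 to 1140 CPM, whereas albumin was the highest of its group at 137397 CPM. The 8 hepatocyte markers examined summed to 73522 to 210278 CPM in NT and 127064 to 179467 CPM in shFos livers. The part of these differences in the P450 values was not tested.

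**Figure D5:**
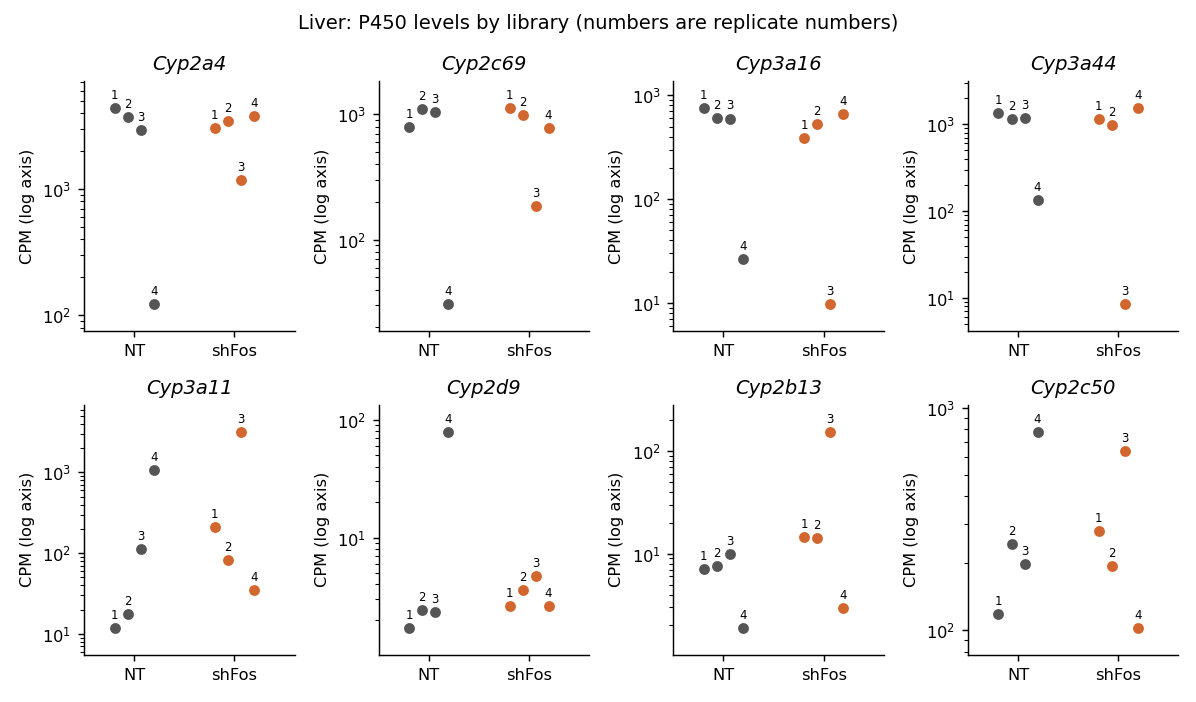
CPM of 8 P450 genes in each of the 8 liver libraries on log axes, with NT and shFos groups side by side and points labelled by replicate number. NT replicate 4 and shFos replicate 3 lie apart from the other livers for Cyp3a11 and Cyp3a44, in opposite directions.

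Members with a fixed place in the liver lobule overlapped between groups. Cyp2f2, a periportal gene, was 629, 852, 776 and 236 CPM in NT and 895, 994, 778 and 1630.4 CPM in shFos livers (log2 fold change 0.79). The pericentral Cyp2e1 was 3744, 3747, 2668 and 2032 CPM against 2893, 2292, 2278 and 2212 CPM (log2 fold change -0.33), and the pericentral Cyp1a2 was 835, 893, 528 and 357 CPM against 567, 722, 358 and 674 CPM. NT replicate 4 was the lowest liver in all 3. Cyp2c50 was instead highest in NT replicate 4, at 118, 243, 199 and 776 CPM in NT and 279, 194, 640.1 and 103 CPM in shFos livers, and Cyp2c37 was 636 to 1272 CPM against 454 to 1106 CPM.

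The bile acid genes varied within groups. Cyp7a1 was 291, 124, 26.2 and 57.5 CPM in NT and 118, 98.6, 101 and 102 CPM in shFos livers. Cyp8b1, which sets the share of cholic acid, was 300.4, 333, 23.2 and 12.6 CPM in NT and 194, 105, 54.4 and 72.4 CPM in shFos livers. For both genes the 4 shFos livers lay inside the range of the NT livers. Cyp27a1 was steadier, at 320.4 to 464 CPM in NT and 287 to 534 CPM in shFos livers, and Cyp39a1, an oxysterol 7α-hydroxylase, was 18.5 to 48.3 CPM and 21.8 to 67.9 CPM. Cyp26a1, which clears retinoic acid, was 99.8, 78.5, 186 and 73.2 CPM against 45.1, 151, 225 and 32.9 CPM. Cyp17a1, the steroid 17α-hydroxylase, was 393, 326, 189 and 198 CPM against 165, 358, 40.3 and 486 CPM, and Cyp51 was 137 to 224 CPM against 150.0 to 197 CPM. These groups all overlapped.

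Whether the shFos effect differed between the organs was tested in the fit of all 16 libraries. edgeR called 0 of 75 P450 genes and 0 of 15421 genes in all (0%), with 0.237 the lowest adjusted p of a P450 gene. At an unadjusted p under 0.05 there were 5 with a higher change in the liver than in the kidney (6.67%, against 7.84% of all genes) and 1 with a lower change (1.33%, against 8.25% of all genes). The 5 were Cyp2d22 (difference of log2 fold changes 1.0, SE 0.39), Cyp4f13 (0.63, SE 0.25), Cyp2d13 (2.02, SE 0.80), Cyp46a1 (1.18, SE 0.47) and Cyp4f17 (0.81, SE 0.33), and the 1 was Cyp2r1. Cyp2d13 entered this fit through the liver alone: it had 14 reads over the NT kidneys and 4 over the shFos kidneys, all 4 in shFos replicate 1, so its kidney change rests on counts near the floor. Without kidney shFos replicate 1, edgeR called 3 higher, Cyp46a1 (adjusted p = 0.00771), Cyp2d13 (0.0103) and Cyp4f13 (0.0329), against 4.01% of all genes. The Cyp2d13 call then sets 14 reads against 0 in the kidney and is no measure of its size. DESeq2 called 0 P450 genes, against 1.39% of all genes.

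Genes of electron supply to P450 enzymes, genes of heme supply and turnover, and factors that regulate P450 genes were examined as lists. At an adjusted p under 0.05 edgeR called 0 genes of these lists in either tissue. Among 7 electron donors and partners in the kidney, 2 were higher at an unadjusted p under 0.05 (28.6%, against 17.1% of all genes) and 1 was lower (14.3%, against 14.8%), the ferredoxin reductase Fdxr of mitochondrial P450 enzymes, at 20.2, 23.7, 21.6 and 23.8 CPM in NT and 17.4, 14.5, 13.4 and 11.1 CPM in shFos kidneys. The 2 higher ones were the ferredoxin Fdx1 and Cyb5b, a cytochrome b5 of the outer mitochondrial membrane, at 380.3, 370.3, 389.5 and 348 CPM in NT and 409, 498, 644 and 525 CPM in shFos kidneys. Among 10 genes of heme supply and turnover in the kidney, 3 were higher (against 17.1% of all genes) and 1 was lower (against 14.8%), the protoporphyrinogen oxidase Ppox, at 54.8 to 57.2 CPM in NT and 50.4, 21.9, 25.7 and 27.2 CPM in shFos kidneys. The 3 higher ones were the ferrochelatase Fech, the heme oxygenase Hmox2 and the coproporphyrinogen oxidase Cpox, at 49.0, 45.6, 40.4 and 45.6 CPM in NT and 50.3, 69.1, 95.8 and 67.9 CPM in shFos kidneys. DESeq2 called 2 genes in each list, Cyb5b and Fdxr, and Cpox and Ppox, each list thus with 1 higher and 1 lower, beside 7.5% and 5.52% of all genes. None of these 4 genes overlapped between groups, as was so for 9.16% of all genes in the higher and 8.04% in the lower direction, and Ppox of shFos replicate 1 was again nearest to the NT kidneys. P450 oxidoreductase, Por, was 287 to 346 CPM in NT and 247 to 439 CPM in shFos kidneys and did not differ beyond its spread.

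Among 19 tested regulators in the kidney, 2 were higher (10.5%, against 17.1% of all genes) and 2 were lower (10.5%, against 14.8%) at an unadjusted p under 0.05. DESeq2 called 4 regulators, these same genes, beside 7.5% of all genes called higher and 5.52% called lower. The 2 lower ones were the D-box activators Dbp, at 4.93, 21.4, 9.51 and 20.3 CPM in NT and 1.29, 4.46, 2.22 and 2.0 CPM in shFos kidneys, and Tef, at 183 to 308 CPM and 109 to 140.1 CPM. The 2 higher ones were Nfil3, which binds the same site as a repressor, at 10.5 to 22.1 CPM against 27.7 to 29.1 CPM, and the glucocorticoid receptor Nr3c1. For Dbp, Tef and Nfil3 the groups did not overlap (against 8.04% of all genes lower and 9.16% higher without overlap). These factors are driven by the circadian clock. At an unadjusted p under 0.05, 3 of 10 core clock genes in the kidney were higher (30%, against 17.1% of all genes). Lower were 5 (50%, against 14.8%), and DESeq2 called 7 of the 10, beside 7.5% and 5.52% of all genes. The time of day at which each mouse was killed is not given in the sources used here, so time of day and treatment cannot be told apart. In the liver 1 of 20 tested regulators was higher (5%, against 3.58% of all genes) and 1 was lower (5%, against 3.16%) at that threshold, and DESeq2 called 0. The pregnane X receptor Nr1i2, the drug sensor that drives Cyp3a genes, was 67.7, 70.7, 81.9 and 55.8 CPM in NT and 101, 101, 120 and 97.7 CPM in shFos livers, without overlap but with an adjusted p of 0.712. Its target Cyp3a11 overlapped between the same groups, as given above.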

How the data were processed

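RNA-seq of 16 libraries (kidney and liver, shFos and NT, 4 each) was used. The authors deposited raw read counts per gene: they trimmed reads with Trimmomatic 0.39, aligned them to mm10 with HISAT2 2.2.1 and counted them with HTSeq 0.12.4, ignoring strand. The 5 summary lines of each table were left out: reads on no gene were 13.4% to 26.7% and ambiguous reads 1.84% to 2.64%. Symbols were matched to GENCODE M21 for identifiers, positions and exon lengths (98.2% of all symbols, 90 of 91 P450 genes, all but Cyp2d13). Promoters came from RefSeq on GRCm38.p6, with an entry for 70 P450 genes.

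Counts were analysed with edgeR 4.0.16 under R 4.3.3 (low counts removed by filterByExpr, TMM scaling, robust quasi-likelihood test, Benjamini-Hochberg adjustment over all genes, calls at an adjusted p under 0.05), in each tissue for shFos against NT, and over all 16 libraries for liver against kidney and for the interaction. Fos was also tested by a two-sided exact permutation of the group labels (70 arrangements). The pipeline was tested on simulated data. Alternatives were DESeq2 1.42.0, upper-quartile scaling, library size alone, no filter, a mean count of at least 10, all 16 libraries in one fit, the replicate number as a block, a GC correction, a newer dispersion estimate and each library left out. The genes named are the 10 with the highest level per tissue, the 8 with the smallest p per direction and tissue, the 5 with the smallest interaction p, and the members with special roles, sex bias or lobular position. Cyp3a11, Cyp2j6, Cyp2j13, Cyp1a1 and the adrenal enzymes were added after their values were seen, and the promoters were chosen then. The members and lists were chosen with earlier results of these data known. Amplified copies of a molecule could not be recognized, so floors cover counting error only. Same-numbered NT and shFos libraries did not deviate together. Deviations of same-numbered kidney and liver correlated at 0.16, 0.34, 0.34 and 0.31 in NT mice (differently numbered pairs -0.35 to 0.19), which passes the bar of 0.1 set for pairing, and at 0.02 to 0.15 in shFos mice, which does not. The labels do not say that these share a mouse.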

Additional observations from a re-analysis of the deposited data

Results flagged for a closer look

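In 86 groups of 4 libraries, for the genes named with a fold change, 17 values lay far from the rest of their group by Dixon's test, where chance gives about 1 in 20 groups (4.3 of 86). That chance figure is for independent groups not chosen by their values. Here the groups share libraries and some genes, such as Cyp3a11, were added after their values were seen, so the counts are not compared. Kidney NT replicate 4 accounts for 7 of them: Cyp2j9 at 27.3 CPM, Cyp2d22 at 146 CPM, Cyp2d9 at 261 CPM, Cyp27b1 at 56.1 CPM and Cyp4a14 at 2821 CPM were each above the other NT kidneys, as was Cyp2c68 at 3.74 CPM, while Cyp4f14 at 2.13 CPM was below them. Kidney shFos replicate 1 accounts for 3, with Cyp2j11 at 197 CPM below and Cyp46a1 at 5.53 CPM and Cyp2b9 at 3.47 CPM above the other shFos kidneys, and kidney shFos replicate 3 for another pair, Cyp4a14 at 812 CPM and Cyp2c68 at 6.51 CPM. In the liver, NT replicate 4 was apart for Cyp2d9 at 78.8 CPM and Cyp3a11 at 1078 CPM, shFos replicate 3 for Cyp2b13 at 153 CPM and Cyp3a11 at 3153 CPM, and shFos replicate 1 for Cyp2e1 at 2893 CPM. The cause of these values was not tested.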

How the results depend on the processing

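The count of P450 genes called in the kidney was 0 in edgeR's fit of the kidney libraries. It depended on the threshold, on the tool and on the libraries kept, shFos replicate 1 above all. It was 6 of 87 with DESeq2 (2582 of 19834 over all genes) and 1 of 75 in a fit of all 16 libraries (994 of 15421). When each library was left out it was 0 to 10, with 10 of 51 without shFos replicate 1 (4126 of 15006). Without NT replicate 4 and shFos replicate 1 together it was 15 of 47 (5183 of 14857). At an unadjusted p under 0.05 it was 15 of 51 (4747 of 14892). The calls over all genes thus moved with the same settings. The DESeq2 calls and those without shFos replicate 1 shared 5 genes, of 6 and 10. In the liver the count was 0, and 3 of 69 at an unadjusted p under 0.05 (886 of 13144 over all genes). For the interaction it was 0, and 0 to 3 when each library was left out, with 3 of 76 without kidney shFos replicate 1 (1246 of 15601 over all genes). At an unadjusted p under 0.05 it was 6 of 75 (2482 of 15421). The liver against kidney count of 63 stayed within 1.5 times in the alternatives run. Its split moved more: with library size alone, the kidney-high genes rose from 11 to 17 and the liver-high genes fell from 52 to 48. Of 894 alternative values of 48 named fold changes, 849 kept their direction and side of the threshold, 35 newly passed it and 10 changed sign: Cyp27b1 in the kidney to 0.25 without NT replicate 4 and 0.40 without both libraries, Cyp4a14 in the kidney to 0.10 and 0.16, Cyp2d9 in the liver to 0.63 without NT replicate 4 and 0.43 without both NT replicate 4 and shFos replicate 3, Cyp3a11 in the liver to -1.47 without shFos replicate 3, Cyp2j13 in the kidney to 0.11 and 0.14 without NT replicate 1 and shFos replicate 3, and Cyp4f18 in the liver to 0.12 without NT replicate 3. With single libraries left out these ran from -2.11 to 0.25 for Cyp27b1, -1.32 to 0.10 for Cyp4a14, -3.04 to 0.63 for Cyp2d9, -1.47 to 4.16 for Cyp3a11, -0.33 to 0.14 for Cyp2j13 and -1.28 to 0.12 for Cyp4f18. The cause was not tested.

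With the replicate number as a block, the counts were 0 in the kidney, 0 in the liver, 0 for the interaction and 63 for liver against kidney. Same-numbered NT and shFos libraries correlated at -0.20 to 0.08 in the kidney and -0.27 to 0.02 in the liver, so the numbers were not read as pairs. Same-numbered kidney and liver of NT mice did correlate in every pair. The block by number also joins NT with shFos libraries of the same number, and no fit with a block per mouse was run. The liver against kidney and interaction counts were therefore not tested under a pairing of the organs. Depth limits genes near 3 reads per library, such as Cyp2j8 in the kidney.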
